A study of Mus musculus with 24 samples.

Results

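The colony-stimulating factors are secreted proteins that control the survival, growth and activation of myeloid cells, and this report follows them and their receptors in SIM-A9 cells, an established line of mouse microglia. The 8 genes are the ligands Csf1, Csf2 and Csf3 and the receptor genes Csf1r, Csf2ra, Csf2rb, Csf2rb2 and Csf3r, chosen by name as members of the family, with earlier results of these data known. They were found by symbol among 54838 genes of the count table, and all 8 are among the 13116 genes with enough counts to be tested. Csf2 and Csf3 are among them only through their reads with LPS. Between groups without LPS, a change in either could hardly be called. The study asked how probes used to record from brain tissue affect microglia, with LPS, a bacterial endotoxin, as the inflammatory positive control. Its 8 groups of 3 libraries were an untreated Control, LPS, (GT)6 SWCNT, carboxylated SWCNT, Fura-2, DiBASC2, Di2ANEPEQ and AAV. SWCNT are single-walled carbon nanotubes, here wrapped in a short DNA of guanine-thymine repeats, (GT)6, or bearing carboxyl groups. Fura-2 is a calcium indicator, DiBASC2 and Di2ANEPEQ are voltage-sensitive dyes, and AAV is adeno-associated virus. In every group, Control included, cells had been moved to 270 uL of serum-free medium for 2 h, and each treatment was added in 30 uL for the last 2 h before RNA was taken. Doses and the cargo of the virus are not given in the sources used here.

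CSF-1, also called M-CSF, binds the receptor tyrosine kinase CSF1R, and this pair keeps microglia and most tissue macrophages alive. GM-CSF, made from Csf2, binds a specific alpha chain (Csf2ra) that joins a signalling beta chain shared with the interleukin-3 and interleukin-5 receptors (Csf2rb). Mice carry a close copy of the beta chain, Csf2rb2, that serves interleukin-3. G-CSF, made from Csf3, binds a receptor of its own (Csf3r), best known on neutrophils. The beta chain and the G-CSF receptor signal through JAK kinases and STAT factors. Macrophages and microglia stimulated through Toll-like receptors are known sources of CSF-1, GM-CSF and G-CSF.

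Libraries held 17364272 to 29259221 counted reads. Cell identity was checked on marker genes, as counts scaled to library size (CPM). All 13 microglia and macrophage markers were detected, with a summed level of 2016 to 2351 CPM per library. Cd68 averaged 848 CPM and Tyrobp 432 CPM, but the homeostatic microglial markers P2ry12, Tmem119 and Cx3cr1 averaged 2.28, 3.79 and 13.5 CPM. Markers of neutrophils summed to at most 0.303 CPM, of lymphocytes to 0.240 CPM, of fibroblasts to 0.379 CPM and of endothelial cells to 0.603 CPM in any library. Those of astrocytes reached 0.489 CPM, of neurons 0.200 CPM and of oligodendrocytes, through Mbp, 5.80 CPM. Syt1, Mog, Dcn and Cldn5 had 0 counts in all 24 libraries. The labels do not say whether the 3 libraries of a group came from separate cultures, so p-values measure only the spread between these samples. A change in transcript per cell cannot be told apart from a change in the number of cells that express a gene.

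The mRNAs of the family were searched for AU-rich elements, repeats of ATTTA in the 3' UTR. Such repeats are bound by RNA-binding proteins such as tristetraprolin (Zfp36) and mark short-lived cytokine transcripts. In the longest annotated 3' UTR of each gene, Csf2 had 9 ATTTA pentamers and 4 copies of the nonamer TTATTTATT. Csf3 had 6 pentamers, Csf1 4 and Csf1r 3, with no nonamer, and the other 4 receptor genes had neither. These counts stand in UTRs of unlike length, 317 bases in Csf2, 669 in Csf3, 2111 in Csf1 and 1669 in Csf1r. The few pentamers of Csf1 and Csf1r are thus spread over long UTRs, where the median over tested genes was 1151 bases. Among 11095 tested genes with such a UTR, 37.8% had at least 3 pentamers and 8.09% at least 1 nonamer. For each ligand, the window of 30 bases with the most ATTTA repeats is shown from the RNA strand of GRCm38, with the repeats in capitals, to show how they are packed.
Csf1, chr3:107741109-107741138, minus strand: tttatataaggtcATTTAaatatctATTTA
Csf2, chr11:54247329-54247358, minus strand: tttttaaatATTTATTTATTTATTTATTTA
Csf3, chr11:98702984-98703013, plus strand: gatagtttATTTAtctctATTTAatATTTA
In the Csf2 window 5 pentamers run into each other, in that of Csf3 3 stand a few bases apart, and in that of Csf1 there are 2.

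Upstream sequences of 250 bases were searched on both strands for the NF-kB motif (kB), and for AP-1, C/EBP, the PU.1 core GAGGAA and the TATA box TATAAA. RefSeq start sites on GRCm38.p6 were at hand for Csf1, Csf2, Csf2ra, Csf2rb2 and Csf3r. A kB match was found in Csf1, 154 to 145 bases before its start, and in Csf3r, 129 to 120 bases before. Such a match stands in 7.25% of 32851 promoters. The promoters of Csf1, which moved in 4 groups, and of Csf3r are shown as the only ones of the 5 with a kB match, in capitals. Csf2, which rose with LPS, had no kB match in its window, and that window is not shown.
Csf1, chr3:107760470-107760719, minus strand: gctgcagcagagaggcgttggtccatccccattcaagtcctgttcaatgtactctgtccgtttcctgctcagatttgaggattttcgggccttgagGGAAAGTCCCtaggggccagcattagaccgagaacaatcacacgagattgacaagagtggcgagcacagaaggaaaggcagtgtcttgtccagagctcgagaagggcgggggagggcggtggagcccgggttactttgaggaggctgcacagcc
Csf3r, chr4:126024409-126024658, plus strand: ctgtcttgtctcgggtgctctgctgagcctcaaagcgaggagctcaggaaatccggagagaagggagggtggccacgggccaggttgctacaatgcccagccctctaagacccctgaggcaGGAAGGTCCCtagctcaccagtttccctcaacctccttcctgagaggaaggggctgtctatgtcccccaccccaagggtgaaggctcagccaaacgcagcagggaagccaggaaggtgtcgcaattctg
Csf2ra had 2 PU.1 core matches, and Csf2rb2 and Csf3r 1 each, against 23.3% of promoters with a match. Csf2 had 1 C/EBP match, a motif found in 8.26% of promoters. None of the 5 windows had an AP-1 match, found in 4.46% of promoters, or a TATA box, found in 12.4%. The RefSeq start of Csf2 lies upstream of its GENCODE start, so the bases just before the GENCODE start were not searched. The RefSeq start of Csf3r lies downstream of its GENCODE start, so part of its window is inside the annotated gene. Its kB match lies just before the GENCODE start and its PU.1 core match inside the gene. The Csf2ra window also reaches a few bases into its gene. A match is a string of letters and does not show that the factor binds.

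Csf1 was the most abundant ligand in every group, and its transcript rose with LPS and with both nanotubes and fell with DiBASC2. Csf1 (ENSMUSG00000014599.10) is a protein-coding gene on chromosome 3, 107741048 to 107760469, minus strand. The Control libraries had 330, 351 and 312 CPM, a mean of 331 ± 19.5 (SD, n = 3). The LPS libraries had 1321, 1313 and 1395 CPM, those of (GT)6 SWCNT 753, 778 and 705 CPM, and those of carboxylated SWCNT 552, 541 and 528 CPM. These 4 groups formed a ladder with no overlap between steps. Against Control, Csf1 was 4.05-fold higher with LPS (log2 2.02 ± 0.04, SE), with an edgeR quasi-likelihood p, Benjamini-Hochberg adjusted over all tested genes, of 1.51e-30. The increase was 2.25-fold with (GT)6 SWCNT (adjusted p = 2.22e-22) and 1.63-fold with carboxylated SWCNT (adjusted p = 2.09e-15). The steps themselves were tested too. Csf1 was lower with (GT)6 SWCNT than with LPS by 1.80-fold (adjusted p = 6.40e-19) and lower with carboxylated SWCNT than with LPS by 2.48-fold (adjusted p = 8.88e-25). Between the nanotubes it was 1.38-fold higher with (GT)6 (adjusted p = 2.22e-10).

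The DiBASC2 libraries were the lowest of all 24 for Csf1, at 250, 258 and 245 CPM. They lay 1.32-fold under Control (log2 -0.40 ± 0.04, adjusted p = 3.18e-08) and 1.28-fold under Di2ANEPEQ (adjusted p = 4.45e-07), whose libraries had 332, 319 and 309 CPM. The means with Fura-2, Di2ANEPEQ and AAV were 342 ± 11.2, 320 ± 11.5 and 344 ± 10.0 CPM, and their libraries overlapped those of Control.

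Csf2 and Csf3 were close to silent in 7 groups and were abundant only in the LPS libraries. Csf2 (ENSMUSG00000018916.5, chromosome 11, 54247271 to 54249667, minus strand) had 147, 192 and 208 reads in the LPS libraries and 0, 3 and 0 in Control. The (GT)6 SWCNT libraries had 2, 3 and 3 reads, carboxylated SWCNT 1, 0 and 1, Fura-2 1 in each, DiBASC2 3, 7 and 2, Di2ANEPEQ 0, 0 and 4, and AAV 1, 0 and 0. At the depth of these libraries 3 reads stand for 0.102 to 0.176 CPM, so levels outside LPS are at the edge of detection. Csf2 averaged 9.03 ± 0.92 CPM with LPS (SD, n = 3). Summed over libraries and scaled for depth, LPS to Control was a ratio of 183, with a 95% counting interval of 62.2 to 889 (adjusted p = 1.60e-16 for the edgeR test). All 3 Control reads were in replicate 2, and without that library Control has 0 reads and no ratio can be given. An antisense gene, Gm12223, overlaps 96 bases of Csf2 exons and had no reads in any library.

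Csf3 (ENSMUSG00000038067.2, chromosome 11, 98701263 to 98703629, plus strand) had 600, 773 and 786 reads with LPS and 1, 0 and 1 in Control. No library outside LPS held more than 3, and the (GT)6 SWCNT libraries held 3, 2 and 3. The LPS mean was 35.7 ± 2.73 CPM. The ratio of LPS to Control was 1082, with a counting interval of 299 to 8942 (adjusted p = 1.06e-26). Against the nanotubes, the LPS ratio for Csf3 was 290 (147 to 672) over (GT)6 and 848 (290 to 4114) over carboxylated SWCNT. For Csf2 it was 73.4 (37.0 to 171) and 322 (88.8 to 2667). Nanotubes thus raised Csf1 while Csf2 and Csf3 stayed at a few reads. For (GT)6 SWCNT against Control the adjusted p was 0.433 for Csf2 and 0.239 for Csf3, and a change at this depth was not detectable. The counting intervals cover counting error only. Leaving out 1 library moved the fitted Csf3 change by over 1.5 times in LPS against Control, from log2 9.86 to 9.24 without Control replicate 2, and in carboxylated SWCNT against LPS, from -9.55 to -10.34 without carboxylated SWCNT replicate 1.

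**Figure D1:**
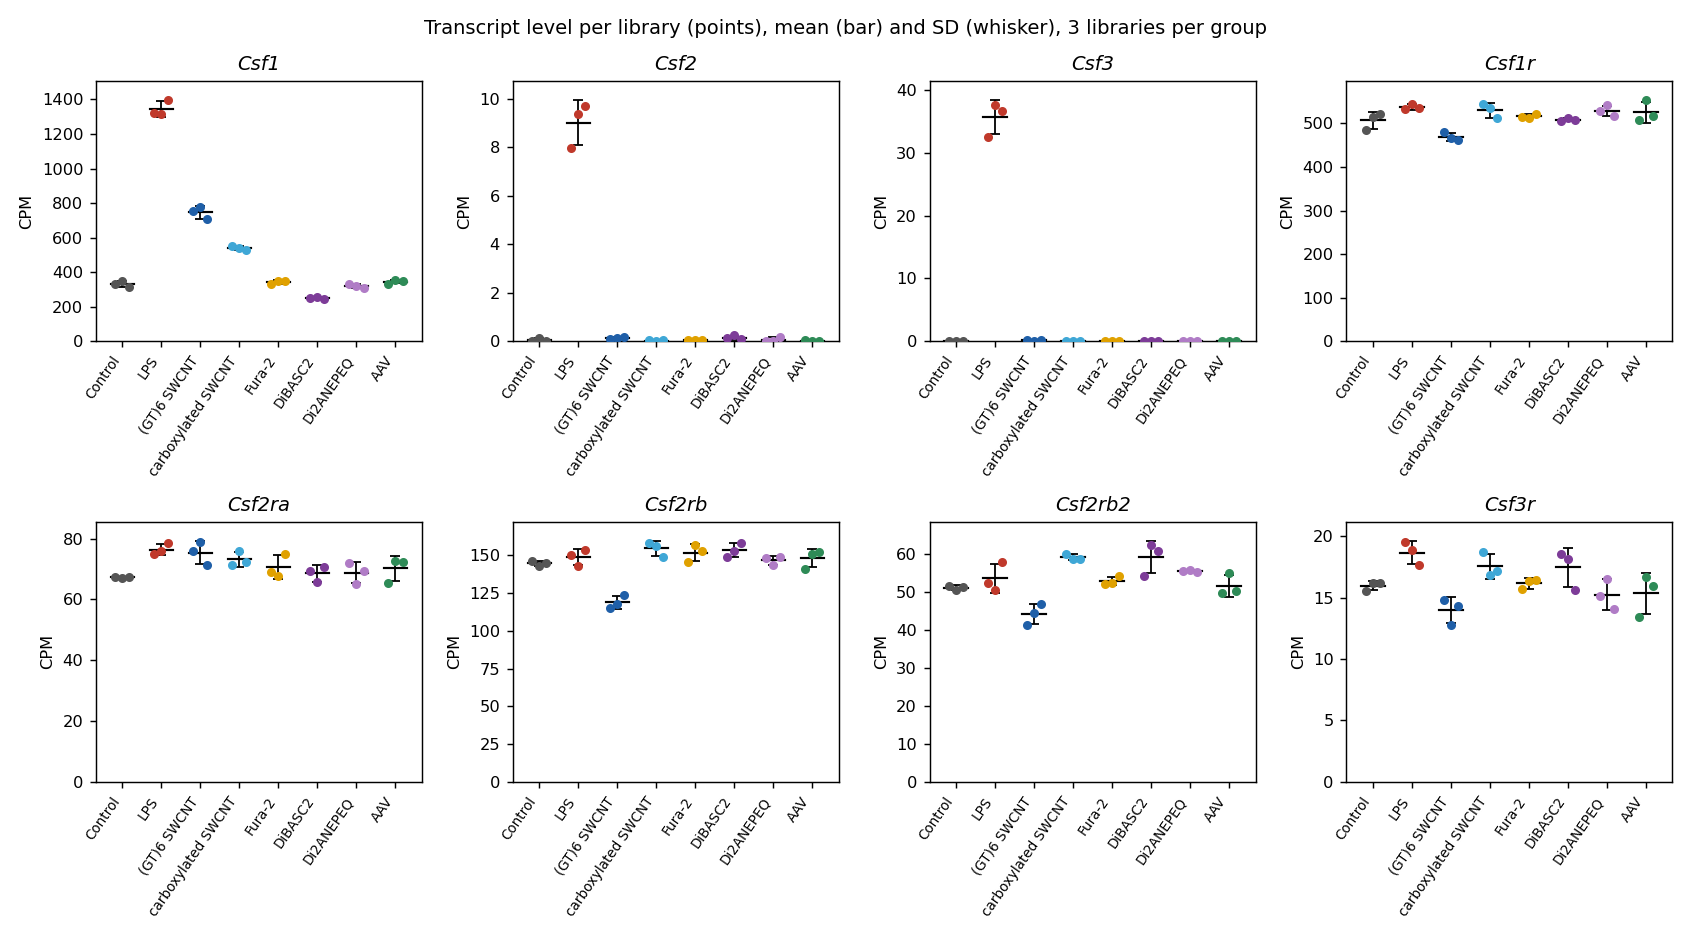
Level of each gene in CPM (vertical axis, linear from 0) in the 3 libraries of each group (horizontal axis), with points for libraries, bars for means and whiskers for SD. Csf1 steps down from LPS (1343 CPM) through (GT)6 SWCNT (745) and carboxylated SWCNT (541) to Control (331), Csf2 and Csf3 reach 9.03 and 35.7 CPM with LPS and stay at or under 0.246 CPM in every other library, and the receptor genes span a narrow range.

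Against Control, the largest change of a receptor gene was log2 -0.28, that of Csf2rb with (GT)6 SWCNT. Csf1r (ENSMUSG00000024621.15, chromosome 18, 61100598 to 61132149, plus strand) was the most abundant receptor, at 485, 516 and 522 CPM in Control. LPS libraries had 533, 544 and 535 CPM, which lay above Control without passing the test (log2 0.08 ± 0.04, adjusted p = 0.0916). The (GT)6 SWCNT libraries, at 479, 467 and 461 CPM, all lay below Control (log2 -0.11 ± 0.04, adjusted p = 0.0244). That call was lost in 5 of 6 fits that each left out a library, all but the fit without Control replicate 1, and reached an adjusted p of 0.245 without Control replicate 3. It was also lost with no low-count filter (adjusted p = 0.0611). Csf1r was lower with (GT)6 SWCNT than with LPS (log2 -0.19, adjusted p = 7.94e-05) and than with carboxylated SWCNT (log2 -0.18, adjusted p = 0.00052), and both calls held in each of those fits. Exons of Hmgxb3, on the other strand, cover 15.1% of Csf1r, and whether counting used strand is not given in the sources used here. Hmgxb3 was higher than Control with LPS (log2 0.27, adjusted p = 9.66e-07), with (GT)6 SWCNT (log2 0.18, adjusted p = 0.000924) and with carboxylated SWCNT (log2 0.17, adjusted p = 0.00138). Its part in the Csf1r values was not tested.

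Csf2ra, the alpha chain of the GM-CSF receptor (ENSMUSG00000059326.6, chromosome 19, 61223957 to 61228429, minus strand), rose slightly with LPS and (GT)6 SWCNT. Control libraries were tightly grouped at 67.5, 67.2 and 67.3 CPM. LPS libraries had 74.9, 75.8 and 78.5 CPM (1.14-fold, adjusted p = 0.00469) and (GT)6 SWCNT libraries 75.9, 78.9 and 71.3 CPM (1.12-fold, adjusted p = 0.0146), all above Control. The (GT)6 call was lost without (GT)6 SWCNT replicate 2 (adjusted p = 0.0922). Carboxylated SWCNT libraries, at 71.2, 75.9 and 72.4 CPM, did not pass (adjusted p = 0.0904). Csf2ra was the only receptor gene whose (GT)6 mean lay above Control.

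The beta chains fell with (GT)6 SWCNT. Csf2rb (ENSMUSG00000071713.6, chromosome 15, 78325752 to 78353847, plus strand) had 146, 143 and 145 CPM in Control and 115, 118 and 124 CPM with (GT)6 SWCNT. That is 1.22-fold lower (log2 -0.28 ± 0.04, adjusted p = 1.17e-06), and the groups did not overlap. LPS libraries had 150, 143 and 153 CPM and carboxylated SWCNT libraries 158, 156 and 149 CPM, and neither passed against Control (adjusted p = 0.520 and 0.0925). Csf2rb with (GT)6 SWCNT was also lower than with LPS (log2 -0.32, adjusted p = 6.42e-08) and than with carboxylated SWCNT (log2 -0.38, adjusted p = 1.10e-08).

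Csf2rb2 (ENSMUSG00000071714.7, chromosome 15, 78282507 to 78305721, minus strand) lies 20030 bases from Csf2rb. It had 51.7, 50.4 and 51.3 CPM in Control, and (GT)6 SWCNT libraries were lower at 41.4, 44.3 and 46.7 CPM (log2 -0.22 ± 0.06, adjusted p = 0.00423). Without (GT)6 SWCNT replicate 1 this call was lost (adjusted p = 0.0794). Carboxylated SWCNT libraries were higher, at 60.0, 58.6 and 58.7 CPM (log2 0.21 ± 0.05, adjusted p = 0.00437). The nanotubes therefore moved this gene in opposite directions, and the test between them gave log2 -0.43 ± 0.05 for (GT)6 against carboxylated SWCNT (adjusted p = 3.50e-07). DiBASC2 libraries had 54.3, 62.3 and 60.7 CPM (log2 0.21 ± 0.05, adjusted p = 0.0134), a call lost without Control replicate 2, DiBASC2 replicate 3 or DiBASC2 replicate 2 (adjusted p up to 0.107, for the last). LPS libraries, at 52.4, 50.5 and 57.7 CPM, overlapped Control.

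The beta chain genes share sequence. Of the 50-base stretches of their transcripts, 12.3% of those in Csf2rb and 18.9% of those in Csf2rb2 occur in another gene, almost all in each other. Reads there can be split between them, so their separate values are uncertain to that extent. Csf2rb2 took 26.1 ± 0.02% of the reads of the pair in Control and a mean of 25.8% to 27.8% in the other groups. The pair summed to 163 ± 6.95 CPM with (GT)6 SWCNT against 196 ± 2.34 CPM in Control and 214 ± 5.40 CPM with carboxylated SWCNT.

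Csf3r (ENSMUSG00000028859.14, chromosome 4, 126024550 to 126044440, plus strand) was the least abundant receptor gene, at 15.6, 16.2 and 16.2 CPM in Control. LPS libraries had 19.5, 18.8 and 17.6 CPM, a rise of 1.17-fold at an adjusted p of 0.0461. This call was lost in each fit that left out a Control library, LPS replicate 1 or LPS replicate 2 (adjusted p up to 0.119). It was also lost with upper-quartile scaling, no filter or the DESeq2 test (adjusted p = 0.111, 0.0784 and 0.064), and with a replicate block (0.0586). The (GT)6 SWCNT libraries, at 14.8, 12.8 and 14.4 CPM, did not pass against Control (adjusted p = 0.121), but were lower than with LPS (log2 -0.42 ± 0.09, adjusted p = 0.00028) and than with carboxylated SWCNT (log2 -0.33 ± 0.08, adjusted p = 0.00368). Of its 50-base stretches, 10.5% occur in another gene, mainly AC105061.2.

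**Figure D2:**
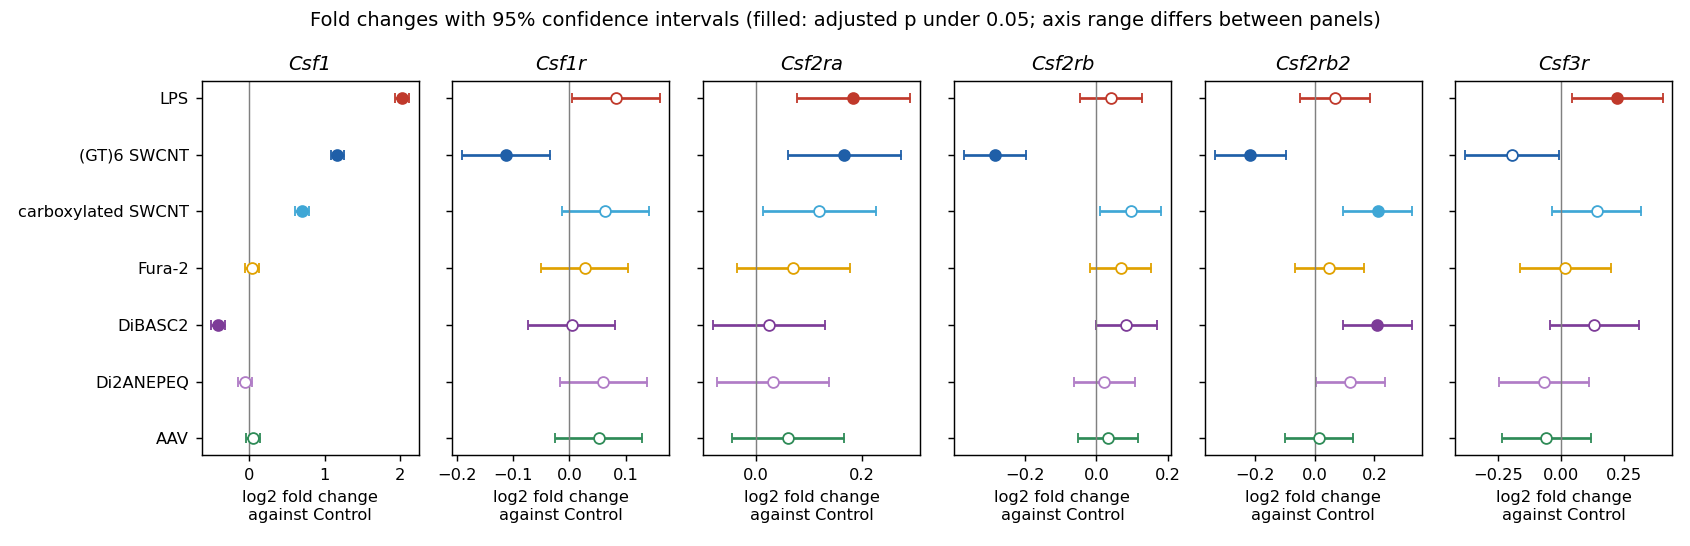
Log2 fold change against Control (horizontal axis, range differs between panels) with its 95% confidence interval for each treatment (vertical axis) in the 6 genes with ample reads, where filled points have an adjusted p under 0.05. Csf1 spans -0.40 to 2.02, while receptor genes stay between -0.28 and 0.22, with (GT)6 SWCNT lowest in every receptor panel except Csf2ra.

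Counted over the family, LPS called 5 of 8 genes, all 5 higher (Csf1, Csf2, Csf3, Csf2ra and Csf3r), where 28.3% of all tested genes were called, 13.8% higher and 14.5% lower. Csf2 and Csf3 were tested only because of their LPS reads, so their calls with LPS were close to fixed in advance. With (GT)6 SWCNT 5 of 8 were called, Csf1 and Csf2ra higher and Csf1r, Csf2rb and Csf2rb2 lower, against 20.4% of all genes, 9.90% higher and 10.5% lower. Carboxylated SWCNT called 2, Csf1 and Csf2rb2, both higher, against 20.0% of all genes, 9.39% higher and 10.6% lower. The treatments share the Control libraries, so these counts are not independent of each other.

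Set directly against LPS, (GT)6 SWCNT gave 7 of 8 genes lower and none higher, with Csf2ra the exception (log2 -0.02, adjusted p = 0.860). Over all genes 21.6% were called, 9.63% higher and 11.9% lower. Carboxylated SWCNT against LPS called 4, the 3 ligands lower and Csf2rb2 higher, and over all genes 37.8%, 18.1% higher and 19.7% lower. In both contrasts with LPS, the calls of Csf2 and Csf3 rest on the LPS reads that brought these genes into the test. The Csf2rb2 call (log2 0.14, adjusted p = 0.0357) was lost without replicate 1 or 2 of either group, up to an adjusted p of 0.221 without LPS replicate 2. The nanotubes differed from each other in 5 genes, with Csf1 higher and Csf1r, Csf2rb, Csf2rb2 and Csf3r lower with (GT)6, while over all genes 21.4% differed, 11.9% higher and 9.48% lower.

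Fura-2, Di2ANEPEQ and AAV called none of the 8 genes. Over all genes, edgeR called 0.252% with Fura-2 (0.0381% higher, 0.213% lower), 3.08% with Di2ANEPEQ (0.686% and 2.39%) and 5.00% with AAV (1.84% and 3.16%), so a count of 0 of 8 is near the background. Csf2 and Csf3 held at most 4 reads in any library of these groups or Control and could hardly be called. The count thus rests on the 6 genes with ample reads. Without adjustment, 1 of these 24 edgeR tests was under 0.05, that of Csf2rb2 with Di2ANEPEQ, and the DESeq2 test also called 0 in each. For the 6 genes with ample reads, the 95% intervals of these fold changes reached from log2 -0.24 (Csf3r with Di2ANEPEQ) to 0.23 (Csf2rb2 with Di2ANEPEQ). For Csf1 the interval was -0.05 to 0.14 with Fura-2, -0.14 to 0.04 with Di2ANEPEQ and -0.04 to 0.14 with AAV.

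DiBASC2 called 2 of 8 genes, Csf1 lower and Csf2rb2 higher, against 5.47% of all genes, 1.82% higher and 3.64% lower. The voltage dyes were compared at the same exposure time, as 1 pair, with doses not given. Between them 1 of 8 genes differed, Csf1, lower with DiBASC2, against 8.95% of all genes, 3.47% higher and 5.48% lower. Csf2rb2, called with DiBASC2 and not with Di2ANEPEQ, did not differ between them at the threshold (log2 0.09, 95% interval -0.02 to 0.20, adjusted p = 0.293). Csf3r lay higher with DiBASC2 by log2 0.20 (interval 0.03 to 0.37), also without passing (adjusted p = 0.119), and passed without DiBASC2 replicate 3 (0.0367).

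Ligand and receptor levels were set side by side per kilobase of exon (RPKM), which allows a rough comparison between genes. In Control, Csf1r was highest at 87.9 RPKM, then Csf1 at 62.7, Csf2ra at 23.4, Csf2rb at 19.9, Csf2rb2 at 10.8 and Csf3r at 4.42 RPKM. The ratio of Csf1 to Csf1r was 0.715 ± 0.0525 in Control (SD, n = 3) and 0.539 ± 0.0120 with DiBASC2. It stood at 1.11 ± 0.0124 with carboxylated SWCNT, 1.74 ± 0.0757 with (GT)6 SWCNT and 2.73 ± 0.109 with LPS, above 1 in these 3 groups only. The lengths used are of all annotated exons, not of the isoforms expressed, and Hmgxb3 overlaps part of Csf1r. A ratio above 1 therefore does not show that ligand transcripts outnumbered receptor transcripts, and only its differences between groups are read here. With LPS, Csf3 reached 4.90 ± 0.559 times the RPKM of Csf3r and Csf2 0.424 ± 0.0354 times that of Csf2ra. These ratios compare transcripts, not proteins.

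**Figure D3:**
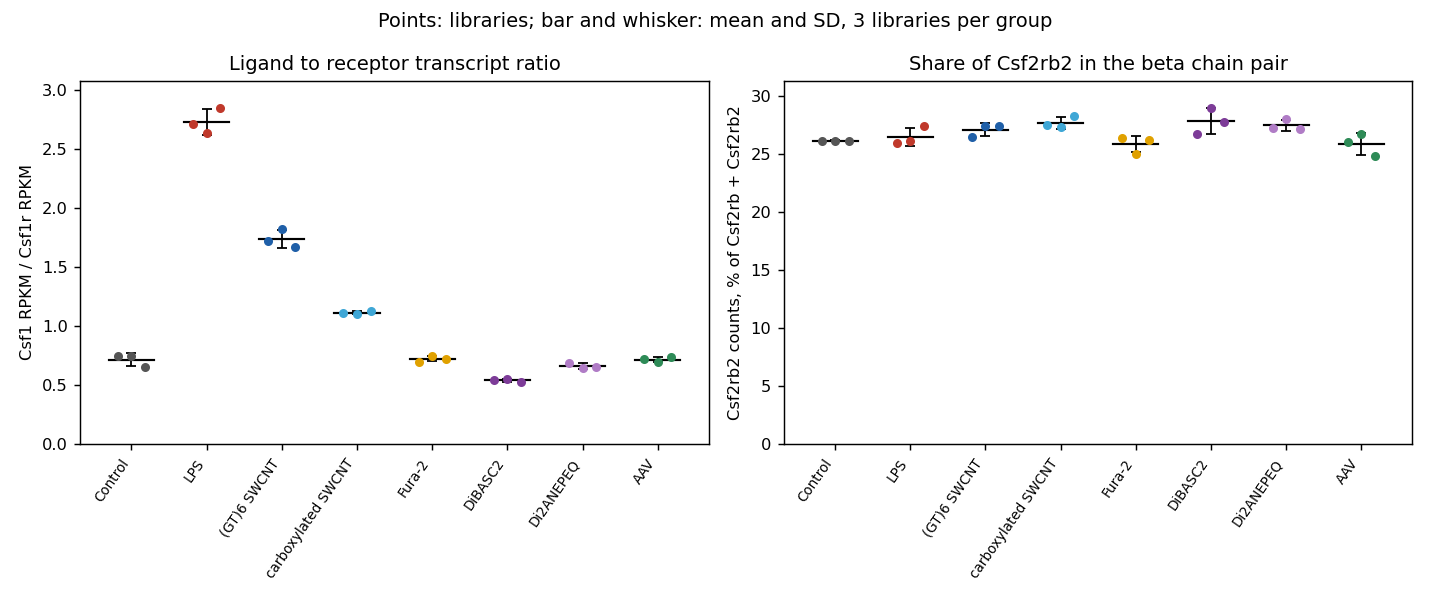
Left, ratio of Csf1 to Csf1r RPKM, and right, Csf2rb2 as a percentage of the reads of both beta chain genes (vertical axes from 0), for each library by group, with mean and SD. The ratio is above 1 in every LPS, (GT)6 SWCNT and carboxylated SWCNT library, and the Csf2rb2 share stays near 26% to 28%.

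The groups were ordered by their mean level for each gene. For Csf1 the order was LPS, (GT)6 SWCNT, carboxylated SWCNT, then AAV, Fura-2, Control and Di2ANEPEQ with overlapping libraries, and DiBASC2 last and apart. The (GT)6 SWCNT mean was the lowest of the 8 groups for Csf1r, Csf2rb, Csf2rb2 and Csf3r, also with DESeq2 size factors and with library totals alone. Its libraries were clear of the next group for Csf1r, Csf2rb and Csf2rb2 and overlapped it for Csf3r. For Csf2ra and Csf3r, every group overlapped its neighbour in the order. Scaled by library totals alone, the order of the groups changed for 6 of 8 genes and was kept for Csf1 and Csf3.

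Across the 24 libraries, the genes whose log2 CPM followed each member most closely were sought among 9479 well-expressed genes. These correlations describe 8 groups of libraries that share treatments, and high values can rest on LPS alone. Csf1 was followed by Dusp2, a phosphatase acting on MAP kinases (r = 0.995), Irak2, a kinase of Toll-like receptor signalling (r = 0.995), and Itga5, an integrin chain (r = 0.993). In all 3 the log2 fold change fell from LPS through (GT)6 SWCNT to carboxylated SWCNT and was under 0 with DiBASC2. These genes were picked for following Csf1 over the same libraries, so this order was largely fixed by the choice. Dusp2 had log2 2.57 for LPS, 1.54 for (GT)6 SWCNT, 0.85 for carboxylated SWCNT and -0.62 for DiBASC2. Csf2 was followed by Lacc1 (r = 0.964), Peli1 and Zfp263 (both r = 0.955), and Csf3 by the transcription factor Irf1 (r = 0.985), the acute-phase gene Saa3 (r = 0.984) and Nfkbiz, an NF-kB cofactor (r = 0.983). Nfkbiz had log2 5.72 with LPS and 0.60 with (GT)6 SWCNT.

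Correlations were lower for the receptor genes. Their levels varied far less between groups than those of the ligands, so the lower values do not show a looser link. Csf1r went with Zkscan17 (r = 0.852), Syk (0.848) and Jade2 (0.827), and Csf2rb with Sh3tc1 (0.846), Syk (0.840) and Gse1 (0.835). Syk is a tyrosine kinase of immune receptors, at log2 -0.14 with (GT)6 SWCNT. Csf2ra went with Dlgap4 (0.875), Exosc10 (0.854) and Fam122a (0.826), Csf2rb2 with Ubox5 (0.792), Sema4a (0.789) and Sphk2 (0.785), and Csf3r with Trim36 (0.801), Ifnar1 (0.780) and Ppp6r1 (0.757). Within the family the closest pairs were Csf2 with Csf3 (r = 0.963, resting on the LPS libraries) and Csf2rb with Csf2rb2 (r = 0.860, genes that share sequence). Csf1 and its receptor Csf1r did not vary together over the libraries (r = 0.011).

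Genes around the family were counted in lists. The lists were chosen with earlier results of these data known, so their counts and medians describe the listed genes and are no test of enrichment. Of 9 related cytokines and receptors, Il3, Il5, Il5ra, Flt3 and Kit had too few reads to test. Il34, the other ligand of CSF1R, did not pass in LPS or with either nanotube. Its means there were only 0.23 to 0.38 CPM, with log2 0.60 ± 0.60 (SE) for LPS, so a change of this size was not detectable. Flt3l, a growth factor for dendritic cells, fell with LPS from 0.854 ± 0.0723 to 0.359 ± 0.123 CPM (log2 -1.23, adjusted p = 0.0127). Kitl, the ligand of Kit, fell with LPS (log2 -0.41, adjusted p = 8.00e-07) and with (GT)6 SWCNT (log2 -0.23).

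Of 7 JAK and STAT genes, 3 were higher and 2 lower with LPS (median log2 0.06, against -0.0084 over all tested genes), where 28.3% of all genes were called. Jak2, the kinase of the beta chain, rose by log2 1.13, Tyk2 by 0.31 and Stat3 by 0.21, and Stat5a fell by 0.31. With (GT)6 SWCNT (median log2 -0.06, against -0.017 over all genes) and with carboxylated SWCNT (0.09, against -0.0016), only Stat3 passed, at log2 0.33 and 0.14, where 20.4% and 20.0% of all genes were called. Jak2 was at log2 -0.06 and -0.02 in these groups.

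Of 10 targets and feedback genes of STAT signalling, 8 were higher and 1 lower with LPS, with a median log2 of 1.51 against -0.0084 over all genes, of which 13.8% were higher and 14.5% lower. Socs3, a feedback inhibitor of the G-CSF receptor, rose by log2 4.37, the growth regulator Myc by 3.70, and Cish, a feedback inhibitor induced by STAT5, by 3.41, while the cyclin Ccnd1 fell by 0.67. With (GT)6 SWCNT 6 of 10 were higher and 1 lower (median log2 0.49, against -0.017 over all genes, 9.90% of them higher and 10.5% lower), led by Cish (2.23) and Myc (1.78). With carboxylated SWCNT 6 were higher and none lower (median log2 0.38, against -0.0016 over all genes, 9.39% of them higher and 10.6% lower), again led by Cish (1.21) and Myc (1.15). Socs3 did not pass with either nanotube (log2 -0.08 and 0.28). With DiBASC2 none was higher and 4 were lower (median log2 -0.11, against -0.0018 over all genes, 1.82% of them higher and 3.64% lower), Osm by log2 0.56, and Pim1, Bcl2l1 and Mcl1 by 0.20 to 0.22.

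Of 16 tested genes of proximal signalling, LPS had 3 higher and 3 lower (median log2 0.01), (GT)6 SWCNT 5 higher and 4 lower (median log2 -0.0061) and carboxylated SWCNT 4 higher and 2 lower (median log2 0.06). Over all tested genes 28.3%, 20.4% and 20.0% were called in these groups, with medians of -0.0084, -0.017 and -0.0016. The kinase Src rose by log2 2.14, 1.63 and 0.83 in this order, and Pik3r1, the regulatory subunit of PI3 kinase, fell by 0.68, 0.46 and 0.27. Fgr, another Src-family kinase, was at log2 0.85 with LPS without passing, and rose by 1.53 and 1.17 with the nanotubes (SE 0.32 for each). A pass beside a non-pass does not show that the treatments differ. Src and Fgr were low in Control, at 1.09 and 0.593 CPM. Adam17, the protease that sheds CSF1R from the cell surface, rose by 0.41 with LPS. DiBASC2 called none of the 16 (median log2 0.0018), and 5.47% of all genes.

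Of 6 transcription factors known to act on the receptor genes, 4 were higher and 1 lower with LPS (median log2 0.34), 5 and 1 with (GT)6 SWCNT (0.26), and 4 and 1 with carboxylated SWCNT (0.29). The shares of all genes called, higher and lower, were 13.8% and 14.5%, 9.90% and 10.5%, and 9.39% and 10.6%, and the all-gene medians were -0.0084, -0.017 and -0.0016. Spi1, which encodes PU.1, rose by log2 0.36 with LPS and 0.15 with (GT)6 SWCNT and was at 0.00 with carboxylated SWCNT. Cebpa was the gene that fell, by 1.03, 0.75 and 0.49, while Cebpb rose by 1.10, 0.26 and 0.30. Ets2 rose by 0.96, 0.70 and 0.40, and fell by 0.35 with DiBASC2, the 1 gene of this list called there, against 5.47% of all genes.

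Of 8 RNA-binding regulators of cytokine mRNA decay, 4 were higher and 1 lower with LPS (median log2 0.08), 4 and 1 with (GT)6 SWCNT (0.12), and 5 and 1 with carboxylated SWCNT (0.14). In these groups 28.3%, 20.4% and 20.0% of all genes were called, with medians of -0.0084, -0.017 and -0.0016. Zc3h12a, the RNase Regnase-1, rose by log2 4.08 with LPS and by 0.41 and 0.46 with the nanotubes. Zfp36, which binds AU-rich repeats such as those of Csf2, rose by 2.19, 1.40 and 1.09, and fell by 0.38 with DiBASC2. Its relative Zfp36l2 fell by 0.85, 0.54 and 0.15. With DiBASC2 1 of the 8 was higher (Zfp36l1, log2 0.24) and 1 lower, against 1.82% and 3.64% of all genes. Over these 6 lists, Fura-2 called no gene, Di2ANEPEQ called Tyrobp (log2 -0.21), and AAV called Pim1 (0.20) and Zfp36l2 (0.21). Over all tested genes 0.252%, 3.08% and 5.00% were called in these groups, so such low counts are near the background.

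**Figure D4:**
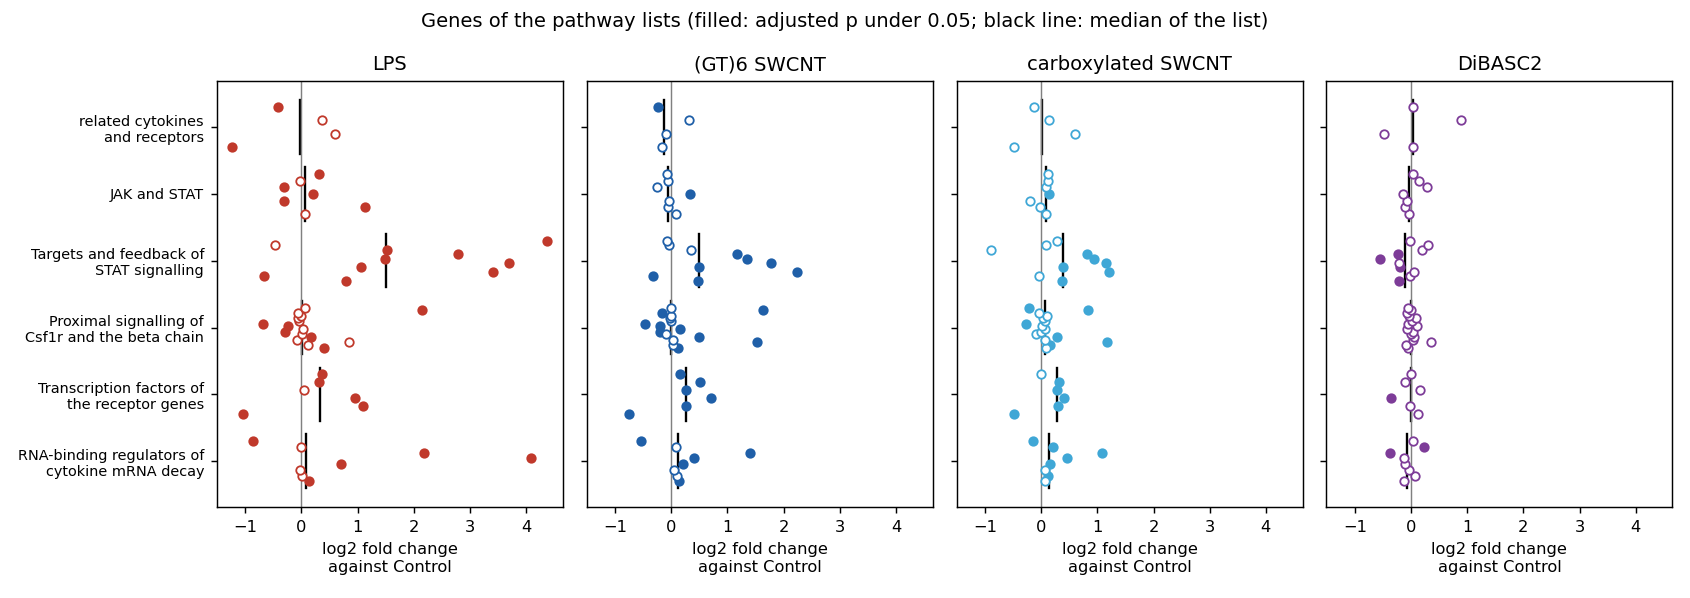
Log2 fold change against Control (horizontal axis) of the tested genes of 6 lists (vertical axis) with LPS, (GT)6 SWCNT, carboxylated SWCNT and DiBASC2, where filled points have an adjusted p under 0.05 and black lines are list medians. The STAT target list has the highest median with LPS (1.51), and single genes such as Socs3 (4.37) and Zc3h12a (4.08) stand far from their list medians.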

How the data were processed

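The authors deposited 1 table of raw read counts per gene (54838 Ensembl identifiers, 24 libraries), used as deposited, with samples grouped by title and no column left out. Per the submitters' processing notes, STAR 2.5.4b and build GRCm38.p6 were used. The counting tool, strand setting and annotation are not given in the sources used here. Labels and columns spell the dyes in several ways (DiSBAC2 for DiBASC2 in the columns). Symbols and positions came from GENCODE M21 (GRCm38), where 54723 identifiers matched without version suffix and 115 did not.

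Counts were analysed with edgeR 4.0.16 in R 4.3.3, after filterByExpr and TMM scaling. One quasi-likelihood model over all groups (16 residual degrees of freedom, biological coefficient of variation 4.12%) gave 11 two-sided contrasts, each Benjamini-Hochberg adjusted over 13116 genes, with a threshold of 0.05. The fit was tested on simulated data, with planted changes larger than any change of a receptor gene here and none in genes with few reads. That test therefore does not cover the small receptor changes, or Csf2 and Csf3 outside LPS. The 24 replicate pairs differed by more than sampling noise (chi-square per degree of freedom 2.43 to 18.9). RPKM divides TMM-scaled CPM by the union of exons. The 95% intervals of fold changes use 16 degrees of freedom, fewer than the edgeR test used, and are thus slightly wide. For Csf2rb with DiBASC2 the interval reached 0 although the unadjusted p was under 0.05. Ratios of summed reads have exact counting intervals at 95%.

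The 8 genes, the lists and the marker genes were chosen with earlier results of these data known. Also named by rule are the 3 genes with the highest correlation to each member (mean of at least 5 CPM), and from each list the 3 largest called changes with LPS and up to 2 with each nanotube and DiBASC2. Il34, Ccnd1, Bcl2l1, Mcl1, Spi1 and Tyrobp, the marker genes and Hmgxb3 are named outside it, chosen after their values were seen. Some genes of the lists are not reported here by name. Alternatives were DESeq2 1.42.0 (size factors and test), upper-quartile scaling, other filters, fits of 2 groups, a replicate block, library totals and leaving out each library.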

Additional observations from a re-analysis of the deposited data

How the results depend on the processing

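No direction of a called change in the 8 genes reversed under any alternative. The calls of Csf1, Csf2 and Csf3 with LPS, of Csf1 with both nanotubes and DiBASC2, and of Csf2rb with (GT)6 SWCNT held in every fit that kept the gene; a mean of at least 50 counts removed Csf2. Csf1r with LPS passed with DESeq2 size factors (adjusted p = 0.0489) and the DESeq2 test (0.0225), Csf2rb passed between carboxylated SWCNT and LPS with upper-quartile scaling (0.0325), and Csf2rb2 there missed with no filter (0.051), 2 groups (0.0552) and DESeq2 (0.0662). Calls were gained for Csf1r with LPS without Control replicate 3 (adjusted p = 0.045), Csf2rb with carboxylated SWCNT without its replicate 3 (0.0265), and Csf2 between the voltage dyes without Di2ANEPEQ replicate 3 (0.0314). Leaving out each library, the number of the 8 genes called ranged from 4 to 5 with LPS, 3 to 5 with (GT)6 SWCNT, 2 to 3 with carboxylated SWCNT, 1 to 2 with DiBASC2 and 1 to 2 between the voltage dyes. It stayed at 0 with Fura-2, Di2ANEPEQ and AAV, at 7 for (GT)6 SWCNT against LPS and at 5 between nanotubes, and was 3 to 4 for carboxylated SWCNT against LPS.

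Over all genes, Fura-2 called 33, but 188 with no filter, 80 with 2 groups, 85 with DESeq2 and 0 to 106 leaving out a library. Di2ANEPEQ called 404, 814 with 2 groups and 120 without Control replicate 1. DiBASC2 fell from 717 to 333 without Control replicate 1, AAV from 656 to 157 without Control replicate 3, and DiBASC2 against Di2ANEPEQ from 1174 to 610 without Di2ANEPEQ replicate 1. With upper-quartile scaling the share of called genes that were higher moved from 48.7% to 35.4% for LPS, 33.3% to 54.9% for DiBASC2, 36.7% to 26.3% for AAV, 44.6% to 57.5% for (GT)6 SWCNT against LPS, 47.9% to 62.5% for carboxylated SWCNT against LPS, 55.6% to 44.4% between nanotubes and 38.8% to 63.4% between dyes. With the DESeq2 test it moved from 15.2% to 31.8% for Fura-2, 22.3% to 32.3% for Di2ANEPEQ, 36.7% to 50.6% for AAV and 38.8% to 27% between dyes. DESeq2 size factors and upper-quartile factors moved the median of all genes by at most 0.0515 (log2), which is a large part of the smallest receptor changes. Library totals were used for the group order only. The causes were not tested.

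Replicate numbers did not pair the libraries: deviations of same-numbered libraries correlated at r = -0.104 to 0.0696 over 33 pairs, and 14 of 33 correlated best with their own number. A fit with the replicate block called 4 of 8 genes with LPS in place of 5, losing Csf3r (adjusted p = 0.0586), and the same number as before in the other 10 contrasts. Depth limits Csf2 and Csf3 outside LPS, where a few reads carry the value.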
